A study of Mus musculus with 6 samples.

Results

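The genes described here are 38 type I interferon-stimulated genes, measured in resting natural killer (NK) cells of mouse spleen. They were taken by symbol from a raw count table of 55291 gene names as antiviral effectors, nucleic acid sensors and STAT and IRF transcription factors, and all 38 symbols were found. The libraries come from 3 wild-type mice (WT 1, 2 and 3) and 3 mice whose heat shock factor 1 (HSF1) has alanine in place of a pair of serines (S303/7A 5, 6 and 7). The series text calls the second genotype HSF1-enhanced, and HSF1 is known for switching on chaperone genes under heat and other proteotoxic stress. All mice were at steady state, with no treatment in either genotype, and the labels give no age, sex, strain or batch. Splenocytes were enriched with DX5 beads, the CD49b-positive cells lacking CD3e were then sorted, and 1 mouse gave 1 library. The comparison asks whether the standing level of these genes in unstimulated NK cells differs between the genotypes.

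Type I interferons bind a receptor made of IFNAR1 and IFNAR2, which signals through the kinases JAK1 and TYK2. The signal reaches a complex that holds STAT2 and IRF9 and binds the interferon-stimulated response element (ISRE) in target promoters. Cells that meet no virus still hold a low, tonic level of these transcripts, and in NK cells type I interferon is known to support priming and cytotoxicity. Interferon gamma acts through a different element, the gamma-activated site (GAS).

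Promoters of the members were read first, since they show the element through which the list is known to be controlled. RefSeq promoter entries (GRCm38.p6, 250 bases before to 50 after a start) were found for 28 of the 38 genes and were missing for Oas2, Dhx58, Zbp1, Usp18, Mx1, Parp9, Parp14, Ifi27, Rtp4 and Ly6e. The ISRE core was searched as GAAA, any 2 bases and GAAA, or on the other strand as TTTC, any 2 bases and TTTC. It stood in 14 of 35 entries of the members (40.0%) and in 3.44% of all 32851 entries. By gene, 13 of 28 members had it (46.4%), against 3.99% of 27025 genes. The palindromic GAS letters TTCNNNGAA stood in 8 of 35 member entries (22.9%) and in 8.30% of all entries, and they overlapped an ISRE core in Bst2 and Ifitm3. A match of letters is a description of the window and does not show a bound site.

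The windows below were chosen because they hold the members whose levels the results turn on, with the matched letters in capitals and each read 5′ to 3′ on the strand of the gene.
Ifit1: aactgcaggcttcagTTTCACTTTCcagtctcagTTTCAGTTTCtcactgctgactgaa
Ifit3: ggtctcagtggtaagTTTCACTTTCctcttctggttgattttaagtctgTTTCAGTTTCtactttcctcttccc
Isg15: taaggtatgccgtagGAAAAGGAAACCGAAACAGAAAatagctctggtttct
Oas3: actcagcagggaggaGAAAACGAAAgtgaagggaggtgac
Bst2: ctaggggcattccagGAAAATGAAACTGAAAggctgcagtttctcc
Stat2: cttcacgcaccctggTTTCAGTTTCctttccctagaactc
Rsad2: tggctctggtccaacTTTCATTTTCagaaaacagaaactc
Ifitm3: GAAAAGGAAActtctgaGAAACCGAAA
Irf1: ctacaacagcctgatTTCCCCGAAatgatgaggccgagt
Isg20: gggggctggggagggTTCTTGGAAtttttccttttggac
The first 8 show ISRE cores, and Irf1 and Isg20, which had none, show GAS letters. Isg15 carries 3 overlapping ISRE cores, Ifit1 and Ifit3 carry a separated pair each, and Oas3, Stat2 and Rsad2 carry 1. The Ifitm3 pair begins at base 3 counted from the start in its RefSeq entry, and all the other windows end before the start. The bounds of Ifitm3 given further below come from another annotation, which places its start at 141010770.

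On GRCm38.p6 the windows are chr19:34640770-34640828 (Ifit1, plus strand), chr19:34583358-34583431 (Ifit3, plus), chr4:156200860-156200911 (Isg15, minus), chr5:120777710-120777749 (Oas3, minus), chr8:71537572-71537617 (Bst2, minus) and chr10:128270261-128270300 (Stat2, plus). Members described below as lower in S303/7A without overlap, none of them called in the main edgeR test, are Rsad2, Ifitm3 and Isg20. Their windows are chr12:26456548-26456587 (Rsad2, minus), chr7:141010716-141010742 (Ifitm3, minus) and chr7:78913336-78913374 (Isg20, plus), and that of Irf1 is chr11:53769909-53769947 (plus).

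Depth differed with genotype: WT libraries held 53845572 to 72736406 counts, and those of S303/7A 43189163 to 47248039. The 9 NK markers were each at 140.04 counts per 1000000 (CPM) or more in every library, with the receptor gene Ncr1 at 2139.9 to 2530.4 CPM, while the T cell gene Cd3e was at 5.496 to 14.8 CPM. All 8 T cell markers summed to 129 to 176 CPM in WT and 179.8 to 206 CPM in S303/7A, with no overlap. Of these markers 7 had log2 folds above 0 and 1 below, with 0 called in edgeR. B cell markers summed to 321 to 642 CPM in WT and 493 to 643 CPM in S303/7A. Genes with a count numbered 24111 to 26313 in WT and 22692 (S303/7A 6) to 23909 in S303/7A. Of the NK markers 6 had log2 folds above 0 and 3 below, and 1, the receptor gene Klrb1c (NK1.1), was called lower in the edgeR test, at 2463 ± 204 CPM (WT) against 1690.2 ± 58.5 CPM (S303/7A; SD, n = 3). All 8 basophil and all 7 platelet markers, from cells that also carry CD49b, had log2 folds below 0 in S303/7A, with summed levels of 414.3 to 714 CPM in WT against 239 to 323 in S303/7A and 242 to 262 against 109 to 151 CPM. Ms4a2 of the first list and Vwf of the second were called lower by edgeR as well. With any 1 library left out the calls of Ms4a2 and Vwf were lost (adjusted p in edgeR 0.0567 to 0.202), and that of Klrb1c was kept without WT 1 (0.0461) and lost without any other (0.0723 to 0.183).

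No interferon-stimulated gene of the list differed between the genotypes past the threshold of the edgeR test. Of 37 members that passed the filter on low counts, 0 had an adjusted p under 0.05 in edgeR's quasi-likelihood test, while 60 of all 16480 tested genes did (0.364%). At an unadjusted p under 0.05 there were 3 members, against 9.68% of all genes tested. All 3 were lower in S303/7A (5.47% of all genes) and 0 were higher (4.21%). DESeq2, which called 2.17% of its genes, called 2 members, Ifitm3 and Rsad2, both lower (1.44% of its genes), limma-voom called 0 (0.231% of genes), and edgeR without the low-count filter called 1 (Ifitm3, 0.502% of genes). With median-of-ratios factors (0.364% of genes called), library totals (0.37%) and counts thinned to equal totals (0.411%), 0 members were called. The median log2 fold of the tested members was 0.015, beside 0.0088 over all genes, and 20 were above 0 and 17 below, where 48.3% of all genes were below. Library totals without scaling factors changed this split to 17 and 20. In bulk RNA, fewer cells of a type and less RNA per cell cannot be told apart.

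The precision of these folds varied between members. The 95% interval of the log2 fold lay inside a 1.5-fold change in both directions for 22 of 37 members and inside a 2-fold change for 31. Those reaching past 2-fold were Oasl2, Mx1, Rsad2, Isg20, Ifitm3 and Ifi44.

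**Figure D1:**
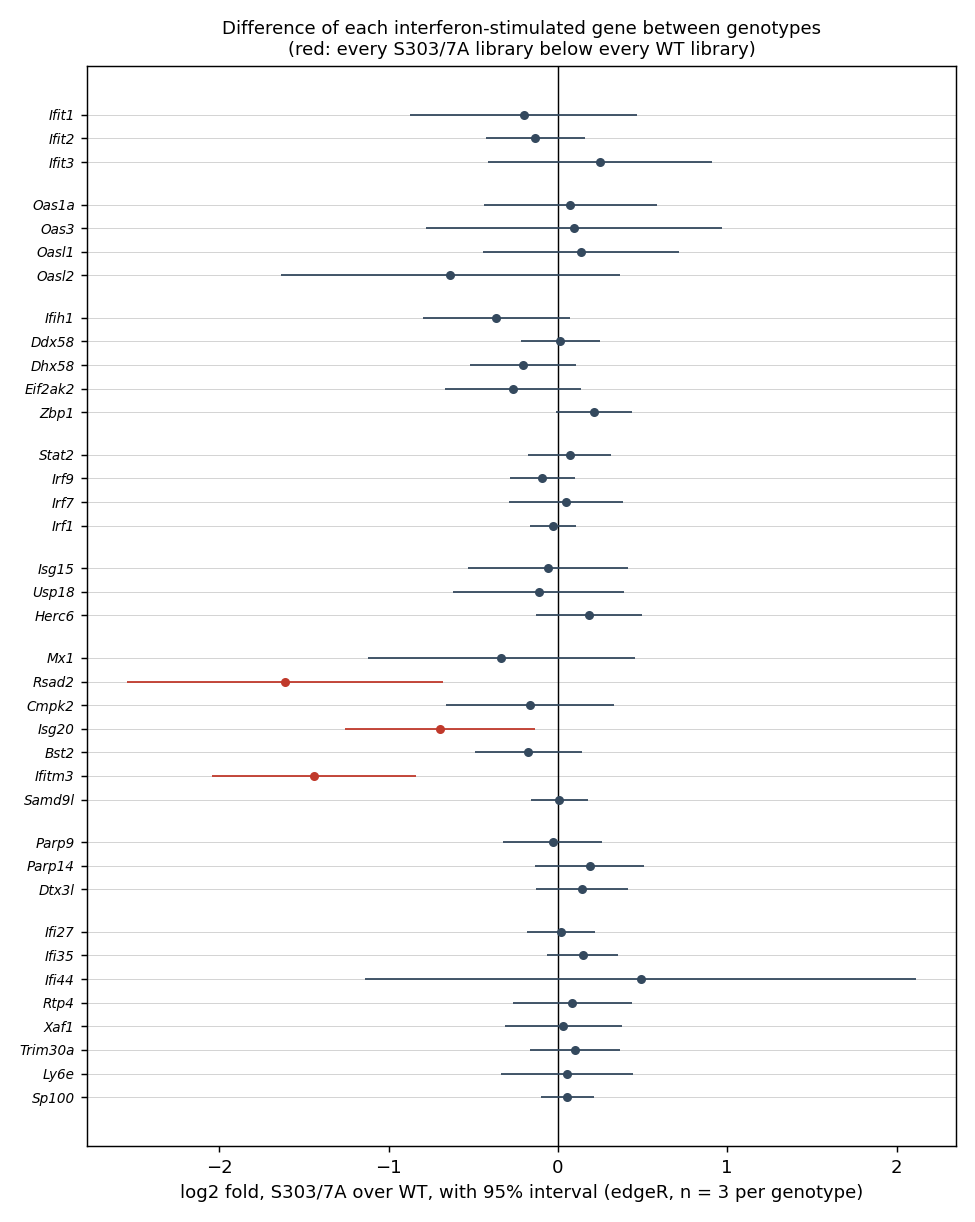
Log2 fold of S303/7A over WT (x axis) for each of the 37 tested genes (y axis, grouped by role), with points for the edgeR estimate and bars for its 95% interval, which is not adjusted for the number of genes. Ifitm3, Rsad2 and Isg20, in red, lie at -1.44, -1.61 and -0.70, and the interval of each of the other 34 genes includes 0.

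Among the transcription factors, Irf1, which also responds to interferon gamma, was at 645, 597 and 637 CPM in WT and at 605, 599 and 636 CPM in S303/7A. Its log2 fold of -0.03 ± 0.06 (SE), with a 95% interval from -0.17 to 0.11, was among the most precise of the list. Irf9, the DNA-binding subunit of the complex that binds the ISRE, was at 141, 130.4 and 153 CPM in WT and at 139, 127 and 133 CPM in S303/7A. The libraries of the genotypes overlapped for both genes.

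Stat2, which joins Irf9 in that complex, was at 86.8, 91.9 and 80.9 CPM in WT and at 95.4, 98.0 and 79.1 CPM in S303/7A. Irf7, the factor that amplifies interferon alpha production, was at 145, 153 and 167 CPM in WT and at 182, 125 and 173 CPM in S303/7A. Both the highest and the lowest Irf7 value thus lay in S303/7A, in libraries 5 and 6, and its log2 fold was 0.05 ± 0.14 (SE). Adjusted p values of the 4 factors ranged from 0.816 to 0.963 in edgeR's quasi-likelihood test.

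Sensors of viral RNA and of unusual nucleic acids were measured at unequal levels. Ddx58 encodes RIG-I, which detects RNA with a 5′ triphosphate, and was at 163, 164 and 139 CPM in WT and at 171, 154 and 144 CPM in S303/7A. Ifih1, for MDA5, the sensor of long double-stranded RNA, was at 18.7, 14.8 and 18.4 CPM in WT and at 16.1, 11.04 and 13.2 CPM in S303/7A. The groups overlapped for both, and per kb of exon Ddx58 stood at 22.0 ± 2.04 CPM in WT and Ifih1 at 2.12 ± 0.264 CPM (SD, n = 3).

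Zbp1, a sensor of Z-form nucleic acid that can start necroptosis, was at 93.5, 77.2 and 78.9 CPM in WT and at 100.4, 93.4 and 95.6 CPM in S303/7A. Its log2 fold of 0.21 ± 0.10 (SE) had an interval from -0.01 to 0.44, and S303/7A 6 lay just below WT 1. Dhx58 (LGP2, a regulator of the other RNA sensors) and Eif2ak2 (PKR, the kinase that halts translation on double-stranded RNA) had log2 folds of -0.21 ± 0.13 and -0.27 ± 0.17. For none of the 5 sensors did the genotypes separate.

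The IFIT family includes proteins that bind viral RNA caps and block translation. Ifit1 was at 8.05, 13.2 and 8.84 CPM in WT and at 10.4, 5.94 and 9.81 CPM in S303/7A, and Ifit3 at 5.93, 9.23 and 6.48 CPM and at 11.2, 6.12 and 8.29 CPM. WT 2 was the highest WT library for both, and S303/7A 6 the lowest of its genotype. Ifit2 was higher and steadier, at 45.1 to 52.1 CPM in WT and 37.3 to 47.5 CPM in S303/7A. Ifit3 shares 97.8% of 1700 aligned bases with Ifit3b, so its counts are uncertain.

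OAS enzymes make 2′-5′-linked oligoadenylate, which activates RNase L. Oas3, the largest of them, was at 29.7, 37.7 and 20.8 CPM in WT and at 46.6, 16.7 and 30.9 CPM in S303/7A. S303/7A thus held both its highest and its lowest level, and the libraries of that genotype spanned 2.78-fold against 1.81-fold in WT. Oas1a was at 12.5 to 13.9 CPM in WT and at 18.6, 10.97 and 12.2 CPM in S303/7A, and it shares 97.6% of 1861 aligned bases with Oas1g.

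Oasl1, an inhibitor of Irf7 translation, was at 6.12 to 9.496 CPM in WT and 6.40 to 9.17 CPM in S303/7A, and Oasl2 at 3.25, 8.16 and 8.61 CPM and at 3.08, 3.71 and 6.10 CPM. Oas2 was the only member that did not pass the filter, with 9, 6 and 1 counts for WT 1, 2 and 3, against 17, 0 and 6 for S303/7A 5, 6 and 7. A count of 0 in S303/7A 6 allows up to 0.0687 CPM (3 counts over the library total without TMM scaling, counting error only).

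Isg15, the ubiquitin-like protein that is attached to other proteins after interferon, was at 7.39, 5.61 and 6.61 CPM in WT and at 6.76, 5.31 and 6.79 CPM in S303/7A. Usp18, which removes ISG15 and blocks the receptor, was at 26.8, 31.3 and 31.2 CPM in WT and at 33.1, 18.9 and 30.6 CPM in S303/7A. The ligase gene Herc6, which attaches ISG15 in mice, was at 21.6 to 24.2 CPM in WT and 24.0 to 29.9 CPM in S303/7A. All 3 overlapped between the genotypes, and S303/7A 6 was the lowest of the 6 libraries for Isg15 and Usp18. Isg15 shares 95.2% of 482 aligned bases with AC151275.1.

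Parp9 and Dtx3l encode an ADP-ribosyl transferase and a ubiquitin ligase that act as a pair, and their exons overlap on opposite strands over 458 bases. Parp9 was at 93.8, 88.0 and 83.7 CPM in WT and at 103, 77.8 and 79.1 CPM in S303/7A. Dtx3l was at 139, 134 and 132 CPM in WT and at 152, 170.5 and 124 CPM in S303/7A. S303/7A 6 was thus lowest for Parp9 but highest for Dtx3l, as it also was for the neighbouring Parp14 (114 CPM, against 79.5 to 103 CPM in the other 5). Whether reads were assigned by strand is not given in the sources used here, so reads of the shared stretch cannot be told apart.

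The highest tonic levels per length belonged to Ly6e, Irf1 and Sp100. In WT, Ly6e, a membrane protein that restricts coronavirus entry, stood at 295 ± 68.3 CPM per kb of exon, Irf1 at 157 ± 6.39 and Sp100, a component of nuclear bodies, at 119 ± 8.69 (SD, n = 3). In S303/7A the same genes stood at 306 ± 23.0, 154 ± 5.03 and 123 ± 2.81 CPM per kb. At the other end were Oas2 (0.0200 ± 0.0151 in WT), Ifi44 (0.328 ± 0.104) and Oasl2 (1.05 ± 0.467), and the median over the 38 members and all libraries was 10.1 CPM per kb. Across the list, tonic levels per kb thus differed far more between genes than between genotypes.

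Members with an ISRE core in the promoter window were not those of the highest level. Their median was 7.19 CPM per kb (13 genes, 1.06 to 33.7), beside 11.7 CPM per kb for the 15 members with an entry and no core (0.394 to 156). This is a description with no test.

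**Figure D2:**
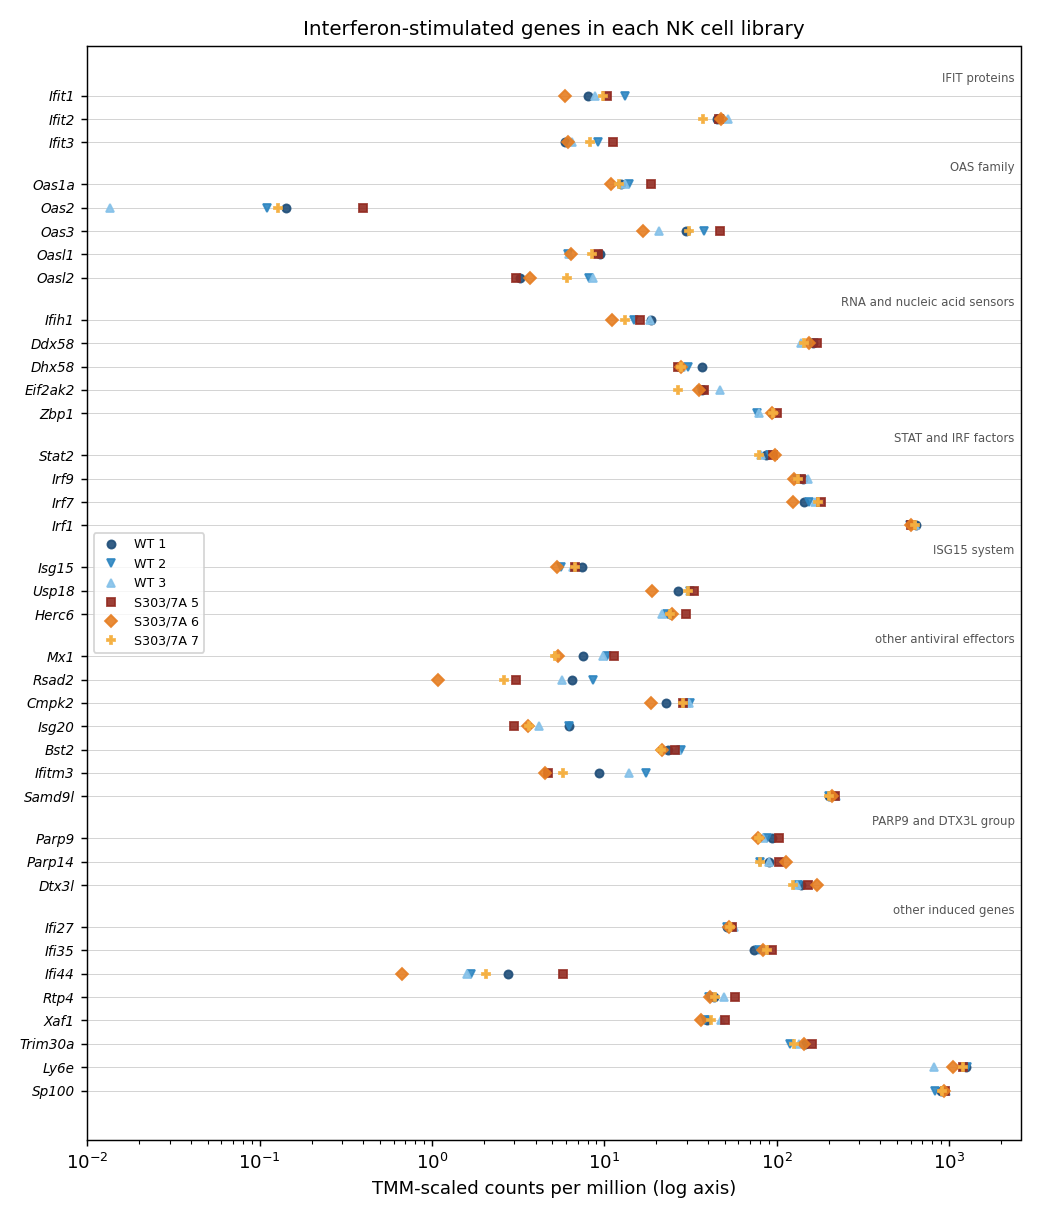
TMM-scaled CPM on a log axis (x) of the 38 genes (y, grouped by role) in each of the 6 libraries, with blue symbols for WT and red or orange symbols for S303/7A; the S303/7A 6 value of Oas2, at 0, is not drawn. Levels run from under 1 CPM for Oas2 to 1276 CPM for Ly6e, and symbols of the genotypes mix for every gene except Ifitm3, Rsad2 and Isg20.

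Ifitm3, Rsad2 and Isg20 were the members whose genotypes did not overlap, all lower in S303/7A (3 of 37, where 8.37% of all genes tested were lower without overlap), and 0 were higher without overlap (7.64% of all genes). Ifitm3, a membrane protein that stops viruses at endosomal fusion, was at 9.37, 17.4 and 13.9 CPM in WT and at 4.69, 4.52 and 5.78 CPM in S303/7A. Every S303/7A library lay below the lowest WT library, WT 1, and the WT libraries spread over 1.86-fold. The level was 2.71-fold lower, a log2 fold of -1.44 ± 0.26 (SE), and edgeR's quasi-likelihood test gave an adjusted p of 0.105, against 7.16e-06 from DESeq2, 0.184 from limma-voom and 0.0176 with no filter on low counts. Without 1 library at a time the adjusted p ranged from 0.0816 to 0.331, so no such fit called it.

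Rsad2 (chromosome 12, 26442746 to 26456452, GRCm38) encodes viperin, an enzyme that makes a chain-terminating nucleotide. It was at 6.48, 8.60 and 5.71 CPM in WT and at 3.08, 1.09 and 2.63 CPM in S303/7A, or 409, 468 and 420 against 132, 47 and 123 raw counts. S303/7A 6 was the lowest library. The log2 fold was -1.61 ± 0.40 (SE), for which edgeR's quasi-likelihood test gave an adjusted p of 0.233. The other alternatives gave 0.0887 to 0.596 (0.224 without S303/7A 6), apart from DESeq2 with 0.00177. Cmpk2, the neighbouring kinase gene that supplies the nucleotide used by viperin, did not share this difference in level: it was at 22.8, 31.4 and 31.0 CPM in WT and at 28.6, 18.7 and 28.7 CPM in S303/7A, with overlap.

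Isg20 (chromosome 7, 78913424 to 78920396), a 3′ exonuclease that degrades viral RNA, was at 6.198, 6.196 and 4.203 CPM in WT and at 3.01, 3.60 and 3.64 CPM in S303/7A, a log2 fold of -0.70 ± 0.24 (SE). It was not called in edgeR's quasi-likelihood test (adjusted p 0.412) or in any alternative (0.241 in DESeq2 to 0.766). The basophil and platelet marker sums given above likewise had no S303/7A library within the WT range, and the neutrophil marker sum was 47.9 to 64.5 CPM in WT and 30.0 to 34.6 in S303/7A. Of the 4 neutrophil markers tested, however, 2 had log2 folds below 0 and 2 above, with 0 called, and Mmp8 and Camp were under 1 CPM in every library. Monocyte and macrophage markers summed to 963 to 1008 CPM in WT and 857 to 951 CPM in S303/7A, with Fcgr1 under 1 CPM throughout. Platelet marker sums were 256, 262 and 242 CPM for WT 1, 2 and 3 and 151, 109 and 142 CPM for S303/7A 5, 6 and 7. Their rank order over all libraries was that of Rsad2, and not that of Ifitm3 or Isg20. The part of these cells in the Ifitm3, Rsad2 and Isg20 values was not tested.

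The Ifitm genes on the lists lie in a cluster on chromosome 7 (GRCm38), with Ifitm2 at 140954837 to 140955987, Ifitm1 at 140967221 to 140969825 and Ifitm3 at 141009586 to 141010770. Ifitm1, which is no member but belongs to the list of other interferon-induced genes, was at 95.2, 108.2 and 110.0 CPM in WT and at 42.4, 45.8 and 58.9 CPM in S303/7A. It fell, with a log2 fold of -1.09 ± 0.14 (SE), and its adjusted p was 0.0414 by edgeR's quasi-likelihood test. This call was kept without S303/7A 7 (0.0278) and lost without any other single library (adjusted p 0.0945 to 0.200 in the same test).

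Ifitm2 was at 13.6, 21.8 and 17.1 CPM in WT and at 8.26, 8.63 and 11.005 CPM in S303/7A, a log2 fold of -0.91 ± 0.22 (SE) that did not pass (adjusted p 0.214, edgeR) and passed in DESeq2 (0.00384). The 3 Ifitm genes on the lists were each lower without overlap between the genotypes, where 8.37% of all genes tested were. Of the 52 tested other interferon-induced genes, 6 were lower without overlap and 5 higher. Ifitm1 and Ifitm2 are named because they were among the lowest p of that list, so they give no separate support for Ifitm3. Irf7, on the same chromosome from 141262706 to 141266481, overlapped between the genotypes. WT 1 was the lowest WT library for Ifitm1, Ifitm2 and Ifitm3, and also for the basophil marker sum (414.3, 714 and 539 CPM for WT, against 264, 239 and 323 CPM for S303/7A). Over the 6 libraries that sum had the same rank order as Ifitm3. It did not have that of Ifitm1 or Ifitm2, both of which were higher in S303/7A 6 than in S303/7A 5. The part of the basophil sum in the Ifitm values was not tested.

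**Figure D3:**
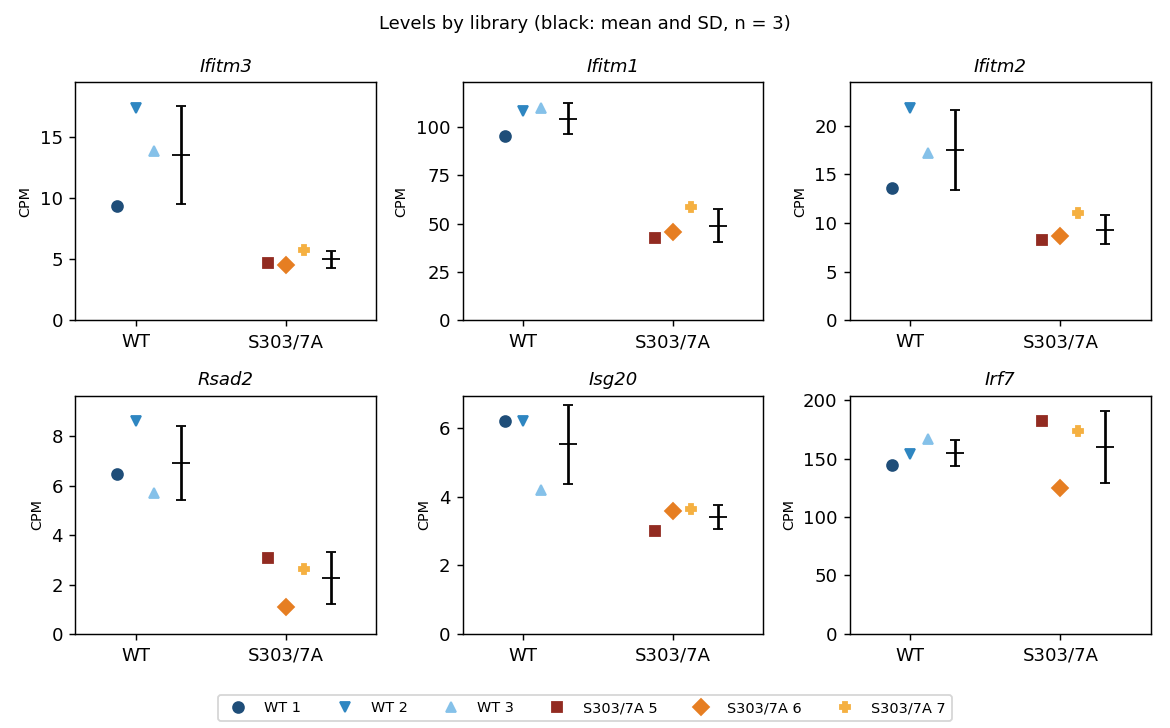
CPM (y axis, from 0) in WT and S303/7A (x axis) for Ifitm3, Ifitm1, Ifitm2, Rsad2, Isg20 and, for contrast, Irf7, with a symbol for each library and black bars for the mean and SD of 3 mice. The first 5 genes do not overlap between genotypes, while the Irf7 values of S303/7A, 125 to 182 CPM, surround those of WT, 145 to 167 CPM.

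Libraries of the S303/7A genotype differed among themselves in the level of these genes. With 1 library per mouse, a difference between mice cannot be told apart from one of sorting or library preparation. Genes of 1 library are not independent of each other, so counts of members are a description only. The mean log2 CPM of the 37 tested members was 5.28, 5.34 and 5.29 for WT 1, 2 and 3, against 5.38, 4.97 and 5.17 for S303/7A 5, 6 and 7. The SD was 0.035 in WT and 0.20 in S303/7A (n = 3 each), and the means of the genotypes, 5.30 and 5.17, lay within the S303/7A spread. For the other interferon-induced genes the SDs lay closer together, at 0.11 in WT and 0.15 in S303/7A. Over all genes tested they were 0.051 and 0.047. Over all genes tested the mean log2 CPM was 3.02, 2.98 and 3.08 in S303/7A 5, 6 and 7.

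Of the 37 members, 25 (67.6%) had their highest S303/7A value in library 5, where 31.4% of all genes tested did. In S303/7A 6, 22 members (59.5%) had their lowest value of the genotype, against 34.7% of all genes. S303/7A 5 exceeded S303/7A 6 for 30 of 37 members, with a median log2 difference of 0.19, against 51.0% of all genes. It exceeded S303/7A 7 for 29 of 37, with a median difference of 0.22, against 50.2% of all genes. S303/7A 7 exceeded S303/7A 6 for 25 of 37, with 0.083, against 48.4% of all genes. In WT no library stood out in this way: the highest WT value fell in WT 1, 2 and 3 for 13, 13 and 11 members.

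Members differed widely in how far the S303/7A libraries spread. Ifi44, an induced gene of unsettled antiviral role, stood at 5.74, 0.673 and 2.06 CPM for S303/7A 5, 6 and 7, a span of 8.53-fold, and at 2.74, 1.69 and 1.59 CPM in WT. Rsad2 spanned 2.82-fold in S303/7A, Oas3 2.78-fold and Mx1, a GTPase that blocks influenza virus, 2.20-fold (11.4, 5.40 and 5.18 CPM). By contrast Ifi27 spanned 1.03-fold, Sp100 1.04-fold, Dhx58 1.05-fold and Irf1 1.06-fold in the same libraries. The pooled SD of log2 CPM within genotypes was 0.20 at the median of the members and 0.26 at the median of all genes tested.

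In the 52 tested genes of the other interferon-induced list, none of them members, 28 (53.8%) were highest in S303/7A 5 within the genotype, and 23 (44.2%) were lowest in S303/7A 6. In WT 22 (42.3%) were highest in WT 1 and 23 (44.2%) lowest in WT 3, so the low share of S303/7A 6 was no larger than that of a WT library. S303/7A 5 exceeded S303/7A 6 in 35 and S303/7A 7 in 36 of 52, against 51.0% and 50.2% of all genes. S303/7A 7 exceeded S303/7A 6 in 26, against 48.4% of all genes. For S303/7A 5 and 6, further values are given here. Total counts of these libraries were close (43189163 and 43676820), and the summed plasmacytoid dendritic cell markers were at 105 and 107 CPM, with Siglech and Klk1 under 1 CPM in every library and the member Bst2 in that list. Platelet marker sums differed (151 and 109 CPM), as did the number of genes with a count (23909 and 22692), and the part of these in the spread was not tested.

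**Figure D4:**
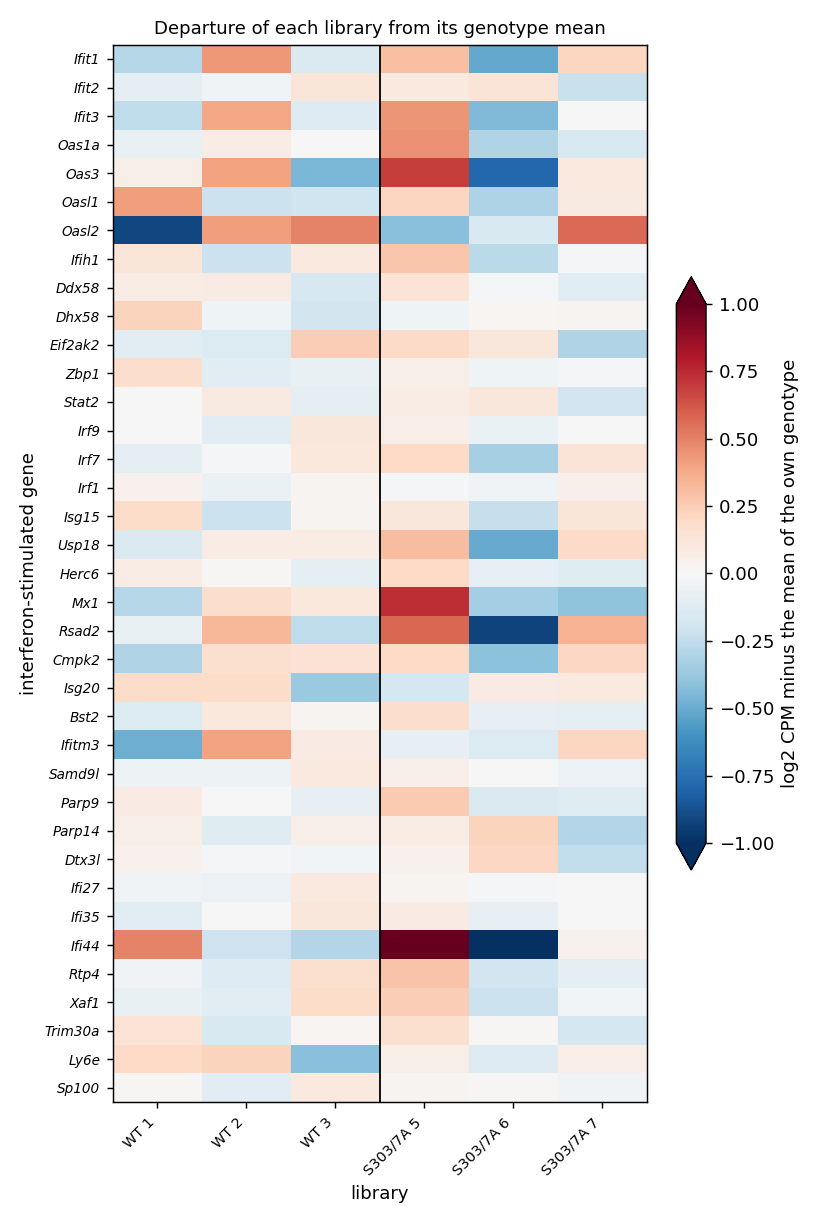
Log2 CPM of each tested gene (rows) in each library (columns) minus the mean of its own genotype, in red above and blue below, with colours that saturate at 1. The S303/7A 5 column is mostly red and the S303/7A 6 column mostly blue, with Ifi44, Oas3 and Rsad2 among the strongest in both, and no WT column has such a run.

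Leaving out single libraries moved the median log2 fold of the members, 0.015 with all libraries, most when S303/7A 5 was left out. It was -0.11 without S303/7A 5, 0.033 without S303/7A 6 and 0.019 without S303/7A 7. Without WT 1, 2 and 3 the median was -0.0030, -0.019 and -0.033, so leaving out S303/7A 6 moved it less than leaving out WT 2 or WT 3. No member was called in any of the 6 fits that left out 1 library. Signs of uncalled log2 folds changed in these fits for 17 of 37 members. For Ifi44 the log2 fold was 0.49 ± 0.69 (SE) with all libraries and -0.56 without S303/7A 5.

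**Figure D5:**
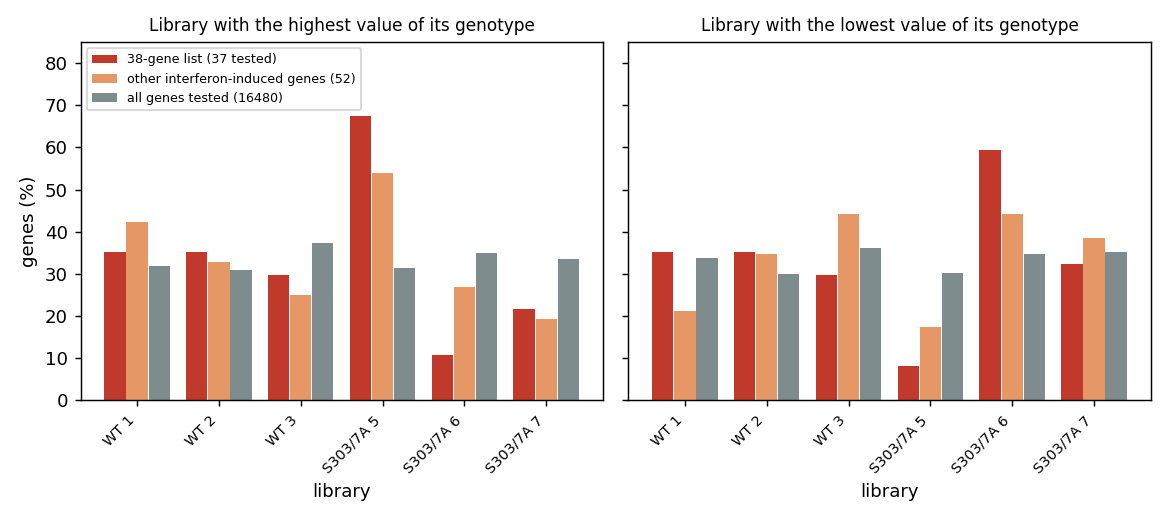
Share of genes (y axis, %, from 0) whose highest (left) or lowest (right) value of the genotype lies in each library (x axis), for the 37 members, 52 other interferon-induced genes and 16480 genes tested. Members reach 67.6% highest in S303/7A 5 and 59.5% lowest in S303/7A 6, while all genes tested lie between 30.1% and 37.3% in every library.

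The remaining members overlapped between the genotypes as well. Bst2, or tetherin, which holds budding virions at the membrane, was at 23.4, 27.9 and 26.4 CPM in WT and at 25.8, 21.6 and 21.4 CPM in S303/7A. Samd9l, a translation inhibitor, was at 200.1 to 222 CPM in WT and 199.99 to 217 CPM in S303/7A, with a 95% interval of the log2 fold from -0.16 to 0.18. The other 5 induced genes, Ifi27, Ifi35, Rtp4, Xaf1 and Trim30a, spanned 38.6 to 147 CPM among WT libraries and 36.5 to 160.1 CPM among those of S303/7A, with log2 folds from 0.02 to 0.15. Counts are uncertain for Sp100, Samd9l, Herc6 and Rtp4, which have near-identical stretches in other annotated genes, and for Ifi35, which an antisense gene overlaps over 290 bases.

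Upstream of the list, the receptor and its kinases were present at like levels in both genotypes. Ifnar1 stood at 261.6 ± 8.67 CPM for WT against 251.4 ± 7.31 for S303/7A, and Ifnar2 at 209 ± 24.3 and 196 ± 21.4 (SD, n = 3). Jak1 was at 3478 ± 94.4 and 3641 ± 192 CPM and Tyk2 at 634 ± 15.2 and 606 ± 16.3. The sensor gene Cgas was at 20.1 ± 2.76 and 20.8 ± 1.5 CPM, and the adaptor gene Sting1 at 302 ± 40.6 and 317 ± 20.2 CPM.

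In the fixed list of 32 pathway genes 31 were tested, and edgeR's quasi-likelihood test called 0, with 6 at an unadjusted p under 0.05 (3 higher and 3 lower), beside 0.364% and 9.68% of all genes. Their median log2 fold was 0.0029. The 4 with the lowest p were Ifngr2, a chain of the interferon gamma receptor (8.79 ± 2.71 CPM in WT and 4.22 ± 1.01 in S303/7A), the adaptor gene Myd88 (127 ± 2.07 and 148 ± 7.42), Irf8 (1169 ± 195 and 847.5 ± 136) and Mavs, the mitochondrial adaptor of RIG-I and MDA5 (115 ± 5.09 and 141.5 ± 16.6). DESeq2 called Ifngr2 (adjusted p 0.0205, against 0.199 to 0.640 in the other alternatives), and limma-voom called none of the list. Irf3, which switches on interferon beta, was at 98.2 ± 2.34 and 107.1 ± 9.38 CPM.

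Of 53 other interferon-induced genes 52 were tested, and 1, Ifitm1, was called (0.364% of all genes), with 11 at an unadjusted p under 0.05 (4 higher and 7 lower, beside 9.68% of all genes). Their median log2 fold was 0.0024. Besides Ifitm1 and Ifitm2, the lowest p belonged to Ifi208, an Ifi200 family gene (46.7 ± 17.5 CPM in WT and 114 ± 8.09 in S303/7A), and Ifit1bl2, a neighbour of Ifit1 (1.77 ± 0.275 and 0.679 ± 0.233 CPM). Neither passed in edgeR, with adjusted p values of 0.115 and 0.279, while for Ifi208 DESeq2 gave 1.4e-06, edgeR gave 0.0137 without WT 1 and 0.00822 with no filter on low counts, and the other alternatives 0.0863 to 0.341.

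Transcripts of the interferons themselves were at or near 0. Of 20 type I and III interferon genes looked for, 14 had no count in any library and the other 6 had 46 counts in all. By library these were 18, 6 and 19 for WT 1, 2 and 3, and 1, 0 and 2 for S303/7A 5, 6 and 7. Over the library totals, without TMM scaling, 3 counts equal 0.0412 to 0.0695 CPM. Ifnb1, interferon beta, had 11, 0 and 6 counts in WT and 0 in each S303/7A library. Ifng, the type II interferon that NK cells make, was at 44.5, 44.6 and 46.6 CPM in WT and at 34.4, 44.1 and 33.2 CPM in S303/7A. These did not overlap, by a margin small beside the spread of S303/7A, and its adjusted p was 0.563 by edgeR's quasi-likelihood test.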

How the data were processed

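The submitters' processing notes name Trimmomatic, STAR, featureCounts, DESeq2 and the build GRCm38 (mm10). Tool versions, strand handling and annotation were not given in the sources used here. Raw counts per gene for 6 libraries, as deposited by the authors, were tested; a normalized table was left aside. Library pairs within a genotype had a chi-square per gene of 26.5 to 82.0, so none agreed within sampling noise.

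edgeR 4.0.16 (R 4.3.3) kept 16480 genes by filterByExpr, with a minimum count of 10 and a minimum total of 15. Its quasi-likelihood test set S303/7A against WT after TMM scaling. P-values were adjusted by Benjamini-Hochberg over every gene tested, and a gene is described as called at an adjusted p under 0.05. The SE is the log2 fold over the root of F. Apart from the values given for 3 counts, CPM values are TMM-scaled, given as mean ± SD over 3 mice, and log2 CPM uses a prior count of 2. Alternatives were DESeq2 1.42.0, limma-voom (limma 3.58.1), median-of-ratios factors, library totals, no low-count filter, thinning to equal totals and leaving out each library. The quasi-likelihood test was also run on simulated counts with known folds. It called 9 of 50 genes changed 1.5-fold, 20 of 50 changed 2-fold, 34 of 50 changed 4-fold and 43 of 50 changed 8-fold. There were 5 false calls among 16480 genes simulated. A gene that was not called may thus still differ.

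The members and gene lists were chosen with earlier results of these data known. Named are all members, a set of pathway and ligand genes whatever their values (1 of them is not reported here), Hsf1, genes of the pathway and other induced lists that passed or were among the 4 lowest p of their list, and cell type markers as a check of the sort. Hsf1 itself stood at 83.2, 104.04 and 108 CPM (WT) against 67.0, 42.2 and 76.9 CPM (S303/7A). The mutations change codons, so its level does not check the labels. Summed T cell markers were at 129 to 176 CPM in WT and 179.8 to 206 CPM in S303/7A, B cell markers at 321 to 642 and 493 to 643, plasmacytoid dendritic cell markers at 96.2 to 122 and 105 to 107, erythroid markers at 5.58 to 7.01 and 3.01 to 6.24, and NK cell markers at 14992 to 18449.6 and 16262.6 to 17256. Positions and exon lengths are from GENCODE M21 (GRCm38), which names 53292 of the 55291 table entries and all 38 members.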

Additional observations from a re-analysis of the deposited data

How the results depend on the processing

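No paired analysis was possible because the genotypes share no replicate numbers. Of all genes tested, 60 were called; 434 were with DESeq2, 38 with limma-voom and 171 without the low-count filter, and 5 (without WT 2) to 57 (without S303/7A 6) with 1 library left out. Without WT 1, WT 3, S303/7A 5 and S303/7A 7 there were 27, 21, 31 and 30. The 0 called members became 2 with DESeq2 and 1 without the low-count filter, and stayed 0 in the other 10 alternatives. Pathway genes called went from 0 to 1 with DESeq2, and other interferon-induced genes from 1 to 3 with DESeq2, 2 without the filter and 0 to 1 with 1 library left out. The cause was not tested. The median log2 fold of the members ranged from -0.11 to 0.033 when 1 library was left out and from -0.013 to 0.017 in the other alternatives.

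Signs of uncalled folds changed under library totals for Ddx58 (-0.013), Samd9l (-0.019) and Ifi27 (-0.0086). With 1 library left out, log2 folds ranged from -0.35 to 0.036 for Ifit1, -0.00032 to 0.45 for Ifit3, -0.19 to 0.22 for Oas1a, -0.30 to 0.40 for Oas3, -0.060 to 0.068 for Ddx58, -0.056 to 0.19 for Irf7, -0.16 to 0.051 for Isg15, -0.27 to 0.096 for Usp18, -0.30 to 0.014 for Cmpk2, -0.026 to 0.059 for Samd9l, -0.17 to 0.040 for Parp9, -0.019 to 0.069 for Ifi27, -0.56 to 0.95 for Ifi44, -0.068 to 0.18 for Rtp4, -0.098 to 0.13 for Xaf1, -0.13 to 0.15 for Ly6e and -0.0094 to 0.11 for Sp100. Ifitm1, Ifitm2, Ifi208, Ifngr2, Klrb1c, Ms4a2 and Vwf were put through the alternatives after their values were seen. Oas2 and the type I and III interferon genes did not pass the filter on low counts and were not tested.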

Other observations

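Mx2, the neighbour of Mx1 on chromosome 16 and a list gene singled out after its values were seen, was at 3.93, 2.28 and 3.24 CPM in WT and at 5.09, 0.0232 and 4.35 CPM in S303/7A 5, 6 and 7. These are 248, 124 and 238 counts in WT and 218, 1 and 203 counts in S303/7A. The library S303/7A 6 thus had almost no Mx2 counts, and the cause was not tested. In the same library Mx1 was at 5.40 CPM, close to the 5.18 CPM of S303/7A 7.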
